A study of Saccharomyces cerevisiae with 12 samples.

Results

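The response of wild-type *Saccharomyces cerevisiae* to mild heat-shock was compared between 60 min and 30 min at 43°C. The aim was to see which genes passed a 2-fold change early only, at both times, or late only. The comparison used all 6 arrays of the series, 3 for each time, and covered 6019 genes and unnamed features, of which 5373 carry a single gene symbol. All cells were strain JN54, a MATa wild-type with his3, leu2, ura3, trp1 and lys2 alleles, cultured in logarithmic phase in YPD at 30°C. Cells were shifted to 43°C, for either 30 min or 60 min, and each time had its own control at 30°C. RNA of the shifted cells carried Cy5 and that of the control Cy3 on 2-colour cDNA microarrays of yeast open reading frames, and no dye swap is described, so that a dye bias of a gene enters both times alike. Each value is a log ratio of heat-shocked over control cells, read as log2, and a difference of log2 ratios between the times also carries any difference between the 2 controls. The 3 experiments of a time are called independent, but nothing states that they came from separate cultures, so the p-values measure the spread between these arrays, which may be technical.

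In budding yeast, heat denatures proteins and activates the heat shock factor Hsf1, which drives genes of chaperones, and the factors Msn2 and Msn4, which drive genes of carbohydrate reserves and antioxidant defence. Genes of ribosomal proteins and of ribosome assembly are repressed at the same time. Many of these changes are strong soon after a temperature shift and then relax to a new level, so that genes can be sorted into transient, sustained and late responses.

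The log2 ratios of the 6 arrays had medians between -0.01 and 0.03 and median absolute deviations between 0.38 and 0.70, with the lowest deviation at each time in experiment 3 (0.38 at 30 min and 0.41 at 60 min). Across features, experiment 1 of 60 min correlated less with the other arrays (r between 0.57 and 0.67) than those did among themselves (0.68 to 0.85), and values without it are given beside several results. The numbers of the probes show a layout of 8 print rows of 24 blocks, and the difference between the times moved with the row. The median difference of log2 ratios, 60 min minus 30 min, was 0.24 in row 1, 0.23 in row 2, 0.16 in row 3 and 0.09 in row 4. It was -0.02 in row 5, -0.11 in row 6, -0.17 in row 7 and -0.24 in row 8. A gene printed in the first rows was therefore more often higher at 60 min, and a gene printed in the last rows more often lower. The layout is read from the probe numbers, and its part in each gene's difference was not tested. Results are given for the deposited values, with most values also after the median of each print block was subtracted in each array (block-centred values).

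**Figure D1:**
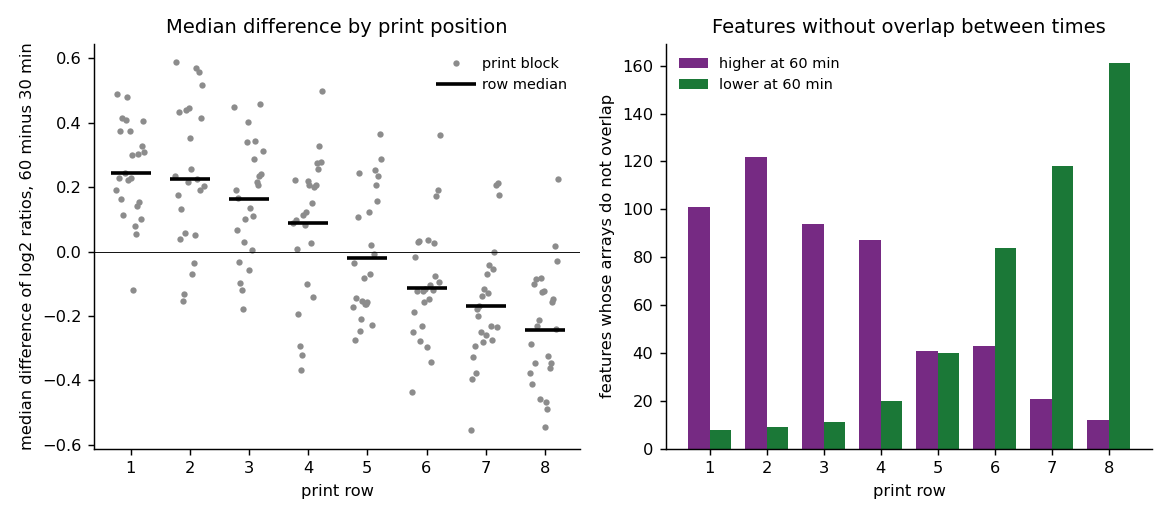
Left, median difference of log2 ratios (60 minus 30 min, y axis) in each of 192 print blocks (grey points) by print row (x axis), with the median of each row as a black bar, which falls from 0.24 in row 1 to -0.24 in row 8. Right, number of features in each row whose 3 arrays at 60 min all lay above (purple) or all below (green) those at 30 min; row 1 had 101 higher and 8 lower, and row 8 had 12 higher and 161 lower.

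No gene differed between 30 and 60 min at an adjusted p below 0.05 in limma (0%, 0 of 6019), the smallest adjusted p being 0.449, shared by 57 features. At an unadjusted p below 0.05, limma gave 253 features higher at 60 min (4.20%) and 263 lower (4.37%), and 211 and 184 with block-centred values. The difference of a gene had a median standard error of 0.33 on the log2 scale, and the median half-width of its 95% interval was 0.73. The interval lay within 1, that is within a 2-fold difference in either direction, for 2452 features (40.7%). For 3051 others it reached past 1 and included 0, so that neither a 2-fold difference nor its absence could be told for them, and for 516 it left out 0, without adjustment for the number of features. Across features, which are not independent replicates, the mean log2 ratios at the 2 times had a correlation of 0.84, as a description of values that share a platform and a print layout.

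All 3 ratios at 60 min lay above all 3 at 30 min for 521 of the 5989 features with 6 values (8.70%), and below them for 451 (7.53%). With block-centred values these numbers were 455 (7.60%) and 335 (5.59%), and 192 and 178 features, respectively, did so in both. These shares are the background for the gene groups described below, which are given by counts and medians without a test of their own. Without experiment 1 of 60 min the median difference of ribosome biogenesis was 0.34, of ER folding 0.32, of the proteasome -0.52, of the TCA and glyoxylate cycles -0.47 and of mitochondrial chaperones -0.57, all groups described below. That of small-subunit ribosomal proteins was -0.36, of large-subunit ones -0.23, of mitochondrial ribosomal proteins -0.06 and of ergosterol synthesis 0.03.

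Genes were sorted with the fold rule of the study, over 2-fold in at least 2 of the 3 arrays of a time. A gene over 2-fold in the same direction at both times was called sustained. A gene over 2-fold at 1 time only was called transient or late where its arrays did not overlap between the times. For transient up and late down genes all 3 ratios at 60 min lay below all 3 at 30 min. For transient down and late up genes they lay above all 3. The order is that of signed ratios, so a ratio could lie on the other side of control. Among all features, 153 were sustained up (2.54%) and 415 sustained down (6.89%). Transient genes numbered 23 up (0.382%) and 50 down (0.831%), and late genes 50 up (0.831%) and 73 down (1.21%). Of these, 5 transient up and 20 late up features passed limma against control at both times (7.63% of all features upward). So did 16 transient down and 20 late down features (11.5% of all features downward). A class thus names the 2-fold rule, not a lack of response at the other time. Arrays overlapped between the times for 90 features up and 148 down at 30 min alone and for 212 up and 142 down at 60 min alone, which were left unclassed, and 0 features were over 2-fold up at one time and down at the other. These classes were made from the same values as the differences given below, so the values describe them and test nothing.

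**Figure D2:**
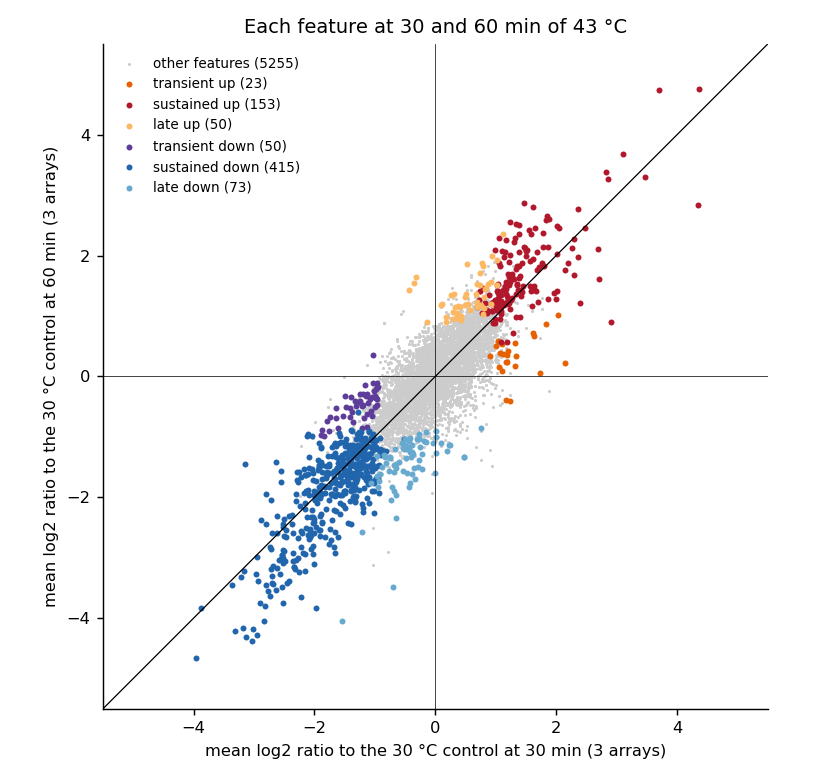
Mean log2 ratio of heat-shocked over control cells of each feature at 30 min (x axis) and at 60 min (y axis), each the mean of 3 arrays, with the 6 classes in colour and the diagonal of equal ratios as a line. The 153 sustained up and 415 sustained down features lie along the diagonal, and the 23, 50, 50 and 73 transient and late features lie off it.

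The classes followed the print layout to different extents. Of the 73 late down features, 68 lay in print rows 5 to 8 and 5 in rows 1 to 4, and of the 50 transient down features 10 and 40 did. Sustained genes were spread more evenly, with 82 of 153 up and 217 of 415 down in rows 5 to 8. With block-centred values, 106 of the 153 sustained up and 346 of the 415 sustained down features kept their class. The other classes kept fewer of theirs, 8 of 23 transient up, 15 of 50 late up, 19 of 50 transient down and 26 of 73 late down. The difference of a gene after block centring is therefore given with its deposited values.

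Sustained up genes had median ratios of 1.33 and 1.52 on the log2 scale at 30 and 60 min. *HSP12*, which encodes a membrane-associated small heat shock protein, had log2 ratios of 4.40, 4.88 and 3.79 at 30 min and of 5.51, 4.91 and 3.86 at 60 min. Its mean was 4.36 ± 0.55 and then 4.76 ± 0.84 (SD, n = 3), a difference of 0.40 with an interval of -0.57 to 1.38 (block-centred 0.22; 0.03 without experiment 1 of 60 min), and the arrays of the 2 times overlapped. *HSP26*, a small heat shock protein that binds unfolded proteins, had means of 3.10 ± 1.18 and 3.69 ± 1.91 (block-centred difference 0.40; -0.36 without experiment 1 of 60 min). *DDR2*, a gene of the general stress response, had 3.47 ± 0.71 and 3.30 ± 1.25, *PHO84*, the high-affinity phosphate transporter, 2.85 ± 1.12 and 3.27 ± 1.41, and *PIR3*, a cell wall protein, 2.83 ± 0.36 and 3.39 ± 0.28. For all 4 of these genes the interval of the difference included 0, and the block-centred differences were -0.41 for *DDR2*, -0.10 for *PHO84* and 0.50 for *PIR3*.

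*SSA4*, which encodes an inducible cytosolic Hsp70, was the exception among the strongest sustained genes. Its log2 ratios were 3.62, 5.30 and 4.10 at 30 min and 3.68, 2.52 and 2.28 at 60 min, so that the lowest value at 30 min lay just under the highest at 60 min. The mean was 4.34 ± 0.87 and then 2.83 ± 0.75, a difference of -1.51 (interval -2.58 to -0.45; limma adjusted p = 0.495; block-centred -1.20). *SSA3*, the other inducible cytosolic Hsp70, had means of 2.71 ± 0.69 and 1.61 ± 1.10, and its arrays overlapped between the times. Its difference was -1.10, with an interval of -2.27 to 0.07 that included 0, and ranged from -1.71 to -0.63 with 1 array left out. After block centring the difference was -1.55 and *SSA3* was transient up. Both genes stood above control at both times, with the lower mean at 60 min.

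Of the 153 sustained up features, 143 passed limma's test against control at both times, where 7.63% of all features passed upward. The rule and this test read the same ratios, so the count supports nothing further. The 95% interval of the difference lay within 1 for 48 of the 153, reached past 1 and included 0 for 87, and left out 0 for 18. In 16 of the 153 all arrays were higher at 60 min, where 8.70% of all features were. In 4 all were lower, where 7.53% of all features were. These 4 were *ALD3*, *GRE3*, *PST1* and *RPN12*, of which *PST1* and *RPN12* are named after their values were seen. *ALD3*, a stress-induced aldehyde dehydrogenase, had log2 ratios of 2.69, 3.75 and 2.28 at 30 min and 1.65, 1.07 and 0.00 at 60 min, the lowest of which stood at control level (block-centred difference -1.49). *GRE3*, an aldose reductase, had means of 2.39 ± 0.46 and 1.22 ± 0.18, a difference of -1.17 (block-centred -0.73). *THI13*, of the near-identical *THI5* family of thiamine precursor synthesis whose members this platform may not tell apart, lay higher at 60 min, with means of 1.33 ± 0.09 and 2.53 ± 0.41 and a difference of 1.20 (block-centred 1.39).

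Sustained down genes had median log2 ratios of -1.63 at 30 min and -1.71 at 60 min, and 406 of the 415 passed limma at both times, where 11.5% of all features passed downward. *RPS2*, a protein of the small ribosomal subunit, had log2 ratios of -4.81, -3.64 and -3.42 at 30 min and -4.88, -4.90 and -4.23 at 60 min, which overlapped (block-centred difference -0.59). *ASC1*, a ribosome-associated protein of the small subunit, had means of -3.87 ± 0.68 and -3.83 ± 0.20, *RPL4B* -3.37 ± 0.47 and -3.45 ± 0.25, *RPS7A* -3.31 ± 1.01 and -4.22 ± 0.87, and *RPL4A* -3.21 ± 0.49 and -3.32 ± 0.72. *RPL4A* and *RPL4B* are near-identical copies, and the ratios of such pairs can share signal. Block-centred differences were -0.04 for *ASC1*, 0.13 for *RPL4B*, -0.77 for *RPS7A* and -0.03 for *RPL4A*. *SRL1*, a mannoprotein of the cell wall, was the only one of these 6 genes whose arrays did not overlap, with -3.48, -3.17 and -2.88 at 30 min and -4.26, -4.33 and -3.89 at 60 min (block-centred difference -0.68). In all, 41 of the 415 sustained down features lay lower at 60 min without overlap, where 7.53% of all features did. Another 20 lay higher, where 8.70% of all features did.

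The transient up gene with the largest difference was *HXK1*, which encodes hexokinase isoenzyme 1 and is induced by stress and poor carbon sources. Its log2 ratios were 1.18, 2.91 and 2.34 at 30 min and 0.37, -0.29 and 0.60 at 60 min. All 3 early values were above a 2-fold increase, and the late values lay around control. The mean was 2.14 ± 0.88 and then 0.23 ± 0.46 (SD, n = 3), a difference of -1.92 (interval -2.89 to -0.95; limma adjusted p = 0.449; block-centred -1.59).

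*HSP60*, the chaperonin of the mitochondrial matrix, had 0.36, 1.60 and 1.52 at 30 min and -0.28, -0.21 and -0.67 at 60 min. Every array lay above control at 30 min and below it at 60 min, with a difference of -1.55 that was -1.47 after block centring. *CHA1*, the catabolic serine and threonine deaminase, had means of 1.32 ± 0.20 and 0.17 ± 0.29, a difference of -1.15 (block-centred -1.32), and *BOP2* had 1.34 ± 0.51 and 0.34 ± 0.11, a difference of -1.01 (block-centred -1.03). These 4 genes kept the transient class with block-centred values.

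*TSL1*, a subunit of the trehalose synthase complex, had 1.48, 2.64 and 1.06 at 30 min and 0.85, 0.62 and -1.30 at 60 min. Its difference was -1.67 and, block-centred, -1.15, and the block-centred arrays overlapped. Without experiment 3 of 60 min the difference was -0.99. *MAL33*, an activator of maltose genes, had a difference of -1.64 (block-centred -1.08), *RAD52*, of recombinational DNA repair, -1.02 (block-centred -0.59), and *FMP45*, a cell cortex protein, -1.01 (block-centred -0.94). Of these, *MAL33* and *RAD52* were over 2-fold at 30 min with overlapping arrays after block centring, and *FMP45* was sustained. None of the 23 transient up genes passed the test of the difference.

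**Figure D3:**
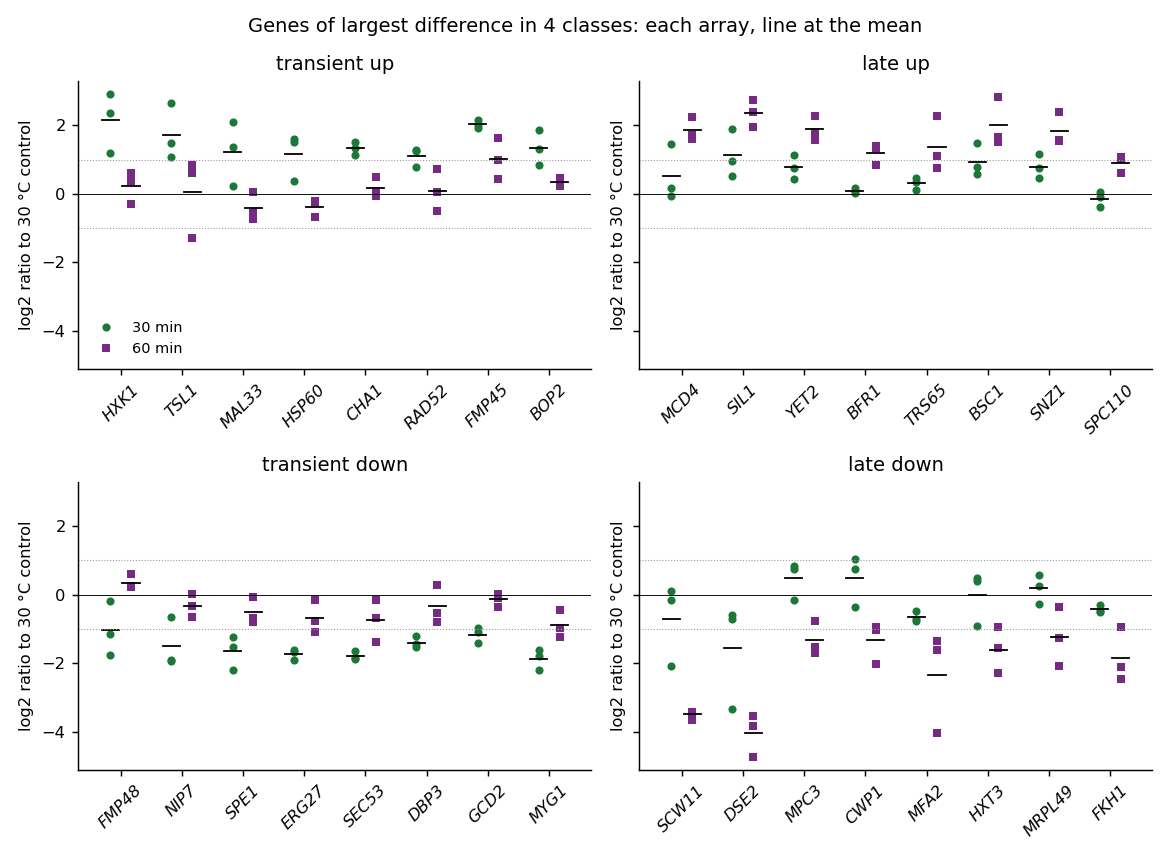
Log2 ratio of heat-shocked over control cells (y axis) in each array at 30 min (green circles) and 60 min (purple squares) for the 8 named genes of largest difference in each of 4 classes, with the mean as a black line and 2-fold as dotted lines. *HXK1* lies between 1.18 and 2.91 at 30 min and between -0.29 and 0.60 at 60 min, and *SCW11* between -3.64 and -3.41 at 60 min.

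Among late up genes with a symbol, *MCD4* and *SIL1* had the largest differences. *SIL1*, the nucleotide exchange factor of Kar2, the Hsp70 of the endoplasmic reticulum (ER), had log2 ratios of 1.89, 0.95 and 0.52 at 30 min and 2.74, 2.39 and 1.94 at 60 min. Its mean was 1.12 ± 0.70 and then 2.36 ± 0.40, a difference of 1.24 (interval 0.38 to 2.10; limma adjusted p = 0.495; block-centred 1.61), and it was counted as sustained after block centring. *MCD4*, an ethanolamine phosphate transferase of glycolipid anchor synthesis in the ER, had 1.44, 0.17 and -0.06 at 30 min and 2.24, 1.71 and 1.61 at 60 min, with a difference of 1.34 (block-centred 1.20). *YET2*, an ER membrane protein, had means of 0.77 ± 0.34 and 1.88 ± 0.36, a difference of 1.11 (block-centred 1.19). *MCD4* and *YET2* kept the late class after block centring.

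*BFR1*, an RNA-binding protein of polysomes, had 0.08, 0.16 and 0.04 at 30 min and 1.33, 0.84 and 1.39 at 60 min. Early values stood at control and late values near or over 2-fold, with a difference of 1.09 that was 0.70 after block centring. *SNZ1*, of vitamin B6 synthesis, had a difference of 1.04 (block-centred 0.67), *TRS65*, of a vesicle tethering complex, 1.06 (block-centred 0.94), and *BSC1* 1.06 (block-centred 1.00). Without experiment 1 of 60 min the differences of *TRS65* and *BSC1* were 0.60 and 0.64. *SPC110*, of the spindle pole body, had a difference of 1.04 that was 0.34 after block centring. *SNZ1* kept the late class after block centring, the arrays of *BSC1* then overlapped, and *BFR1*, *TRS65* and *SPC110* were no longer over 2-fold in 2 arrays of 60 min.

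Transient down genes were led by *FMP48*, a mitochondrial protein with a kinase domain, whose log2 ratios were -1.15, -0.18 and -1.75 at 30 min and 0.22, 0.25 and 0.59 at 60 min. Its difference was 1.38 (interval 0.51 to 2.25; limma adjusted p = 0.449; block-centred 1.46). *ERG27*, a reductase of ergosterol synthesis, had means of -1.74 ± 0.16 and -0.68 ± 0.47, a difference of 1.06 (block-centred 1.14). *GCD2*, a subunit of the exchange factor of translation initiation factor eIF2, had -0.98, -1.10 and -1.40 at 30 min and 0.02, -0.35 and -0.09 at 60 min. The late values of *GCD2* stood close to control, and the difference of 1.02 was 1.05 after block centring. *DBP3*, an RNA helicase of ribosome assembly, had a difference of 1.05 (block-centred 0.92). These 4 genes kept the class after block centring.

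*NIP7*, which takes part in assembly of the large ribosomal subunit, had -1.90, -1.95 and -0.67 at 30 min and 0.03, -0.32 and -0.66 at 60 min. Experiments 1 and 2 of 30 min were thus well below control, experiment 3 was close to the lowest at 60 min, and the difference of 1.19 was 0.65 after block centring. *SPE1*, ornithine decarboxylase of polyamine synthesis, had a difference of 1.13 (block-centred 0.82), *SEC53*, phosphomannomutase of protein glycosylation, 1.06 (block-centred 0.66), and *MYG1* 0.99 (block-centred 0.73). After block centring the arrays of *NIP7*, *SPE1*, *SEC53* and *MYG1* overlapped between the times.

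Late down genes held the largest differences among named genes. *SCW11*, a glucanase-like cell wall protein of daughter cell separation, had log2 ratios of -2.08, -0.14 and 0.09 at 30 min and -3.64, -3.42 and -3.41 at 60 min. The 3 late values lay close together and far below every early value, of which that of experiment 1 was already low. The mean was -0.71 ± 1.19 and then -3.49 ± 0.13, a difference of -2.78 (interval -3.88 to -1.68; limma adjusted p = 0.449; block-centred -2.25). *DSE2*, a secreted protein of daughter cells that acts in the same process, had -3.35, -0.70 and -0.58 at 30 min and -3.84, -4.73 and -3.54 at 60 min, a difference of -2.50 (block-centred -2.16). Without the experiment 1 array of 30 min, in which both genes were low, limma gave an adjusted p of 0.00823 for *SCW11* and of 0.0299 for *DSE2*, which leaves out the array that lay nearest to the late ones. With any 1 of the other 5 arrays left out, limma called 0 genes. *CTS1*, the endochitinase that cuts the septum, was sustained down, with means of -1.97 ± 0.76 and -3.83 ± 0.65 and a difference of -1.86 (block-centred -1.87).

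*MPC3*, a subunit of the mitochondrial pyruvate carrier, had -0.15, 0.84 and 0.74 at 30 min and -1.70, -0.78 and -1.52 at 60 min, a difference of -1.81 (block-centred -1.38). *CWP1*, a mannoprotein of the cell wall, had -0.36, 0.76 and 1.04 at 30 min and -1.02, -2.02 and -0.93 at 60 min, a difference of -1.81 (block-centred -1.49). In both genes the early arrays lay on either side of control and the late arrays all below it. *HXT3*, a low-affinity glucose transporter, had a difference of -1.60 (block-centred -1.07). *HXT1*, another low-affinity glucose transporter, had -1.12, -0.56 and -0.55 at 30 min and -2.08, -2.03 and -2.04 at 60 min, a difference of -1.31 (block-centred -1.32).

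*MFA2*, which encodes the mating pheromone a-factor, had -0.71, -0.48 and -0.77 at 30 min and -4.05, -1.62 and -1.35 at 60 min, with 1 late array far below the other 2. Its difference was -1.69 (block-centred -1.56), and -0.83 without that array, experiment 1 of 60 min. *FKH1*, a forkhead transcription factor of the cell cycle, had a difference of -1.40 (block-centred -1.11). *MRPL49*, of the large mitochondrial ribosomal subunit, had a difference of -1.42 (block-centred -1.11) and was in no class after block centring. *DLD3*, a lactate dehydrogenase, had means of -0.36 ± 0.16 and -1.52 ± 0.13, a difference of -1.17 that was -0.63 after block centring. *PST2*, an oxidative stress protein of the plasma membrane, was in no class, with means of 0.40 ± 0.40 and -0.92 ± 0.12 and a difference of -1.32 (block-centred -1.75).

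Genes of ribosome assembly were nearer to control at 60 min than at 30 min. Of the 104 measured genes of ribosome biogenesis, 30 lay higher at 60 min without overlap (28.8%, against 8.70% of all features) and 0 lay lower, where 7.53% of all features did. Their median log2 ratio was -0.58, -0.99 and -0.61 in the 3 arrays of 30 min and -0.28, -0.55 and -0.17 in those of 60 min. The late medians were the 3 highest. The median difference was 0.39, against 0.03 over all features, 87 of the genes had a difference above 0 and 17 below, and 10 were transient down and 9 sustained down. The lowest difference, -2.13, was that of *FAF1*, of small subunit assembly, which is named after its values were seen, whose arrays overlapped and which stood at -7.65 in experiment 1 of 60 min alone (block-centred difference -1.72). With block-centred values the median difference was 0.34, with 28 genes higher and 0 lower. Within each of the 8 print rows the genes of this list also lay above all features of the row, by 0.21 to 0.53 in their median difference.

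*CBF5*, the pseudouridine synthase of the box H/ACA ribonucleoprotein, had means of -2.10 ± 0.09 at 30 min and -0.96 ± 0.51 at 60 min, with a difference of 1.14 (block-centred 1.13). *NOP7*, which acts in assembly of the large subunit, had means of -2.12 ± 0.22 and -0.99 ± 0.24, a difference of 1.13 (block-centred 0.97). *CBF5* and *NOP7* were sustained down and became transient down after block centring. *UTP7*, of the complex that processes small subunit RNA, had a difference of 1.13 (block-centred 0.90), *RRP14*, of ribosome synthesis, 1.22 (block-centred 1.04), and *RNT1*, the RNase III that cuts precursor RNAs, 1.18 (block-centred 0.55). *RRP14* had -0.89, -0.87 and -0.87 at 30 min and 0.47, 0.26 and 0.29 at 60 min, and so was below control in each early array and above it in each late one.

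Ribosomal protein genes showed no such return. For the 72 measured genes of the large subunit the medians on the log2 scale were -2.07 early and -2.39 late, and for the 52 of the small subunit -2.21 and -2.72. Their median differences were -0.38 and -0.56, or -0.37 and -0.53 with block-centred values. That of the large subunit was 0.00 when the arrays were scaled to 1 spread, and that of the small subunit stayed below 0 under each setting, between -0.89 and -0.22. Of the large-subunit genes 66 were sustained down, and of the small-subunit genes 47. Without overlap 3 genes of the large subunit lay lower at 60 min (4.17%) and 3 of the small one (5.77%), both shares under the 7.53% of all features, and 0 higher. With block-centred values 1 (1.39%) and 4 (7.69%) lay lower and 0 higher. *RPP0*, the stalk base protein, named after its values were seen, had the highest difference, 1.69, with overlapping arrays, and stood at 1.82 in experiment 1 of 60 min against -3.58 and -2.61 in the other arrays of that time (block-centred difference 0.98). *RPP2B*, an acidic protein of the ribosomal stalk, had -1.42, -1.93 and -1.63 at 30 min and -3.48, -3.02 and -2.25 at 60 min, a difference of -1.26 (block-centred -0.99). *RPL23A* had a difference of -1.14 (block-centred -0.96) and *RPS28A* -1.04 (block-centred -0.60). Many of these genes occur as near-identical pairs, which the array may not separate.

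Other groups of the translation and transcription machinery had small shifts. Of 44 genes of cytosolic translation factors 4 lay higher without overlap (9.09%) and 0 lower, or 6 (13.6%) and 1 with block-centred values, with a median difference of 0.14 that was -0.05 without the experiment 3 array of 60 min. Of 39 genes of RNA polymerases I and III, 4 lay higher (10.3%) and 2 lower (5.13%), or 5 (12.8%) and 2 with block-centred values. *RPC25*, of RNA polymerase III, had -0.78, -0.99 and -0.35 at 30 min and 0.30, 0.30 and 0.36 at 60 min, a difference of 1.03 (block-centred 0.77). The 21 cytosolic tRNA synthetases stayed down, with median log2 ratios of -1.49 and -1.34, and 15 of them were sustained down.

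**Figure D4:**
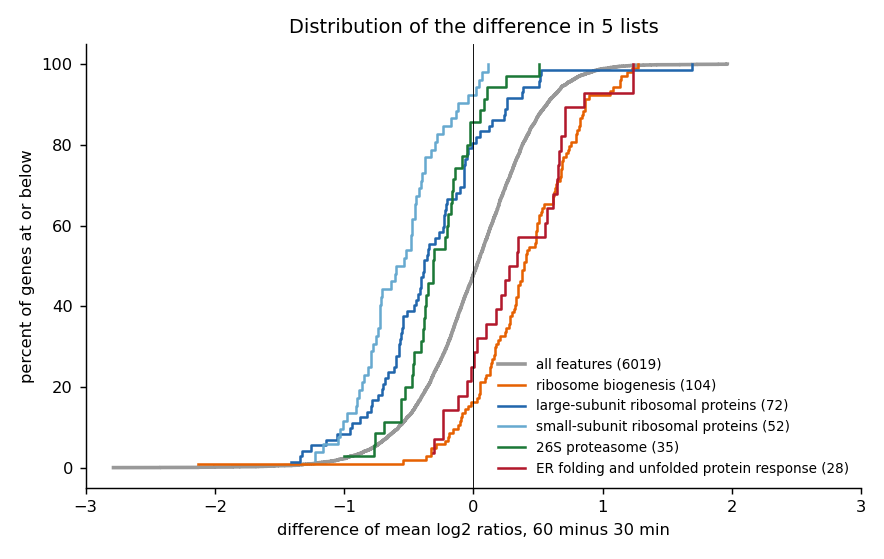
Percent of the genes of a group (y axis) whose difference of mean log2 ratios, 60 minus 30 min (x axis), is at or below a value, for 5 groups and for all 6019 features in grey. The curves of ribosome biogenesis (median 0.39) and ER folding (median 0.30) lie to the right of that of all features (median 0.03), and those of ribosomal proteins (medians -0.38 and -0.56) and the proteasome (median -0.31) to the left, over most of their range.

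Most ER folding genes had a higher mean at 60 min. Of 28 measured genes of ER folding and the unfolded protein response, 8 lay higher at 60 min without overlap (28.6%) and 0 lower, and with block-centred values 6 (21.4%, against 7.60%) and 0. The median difference was 0.30 in both. The array medians were 0.25, 0.10 and 0.03 at 30 min and 0.43, 0.23 and 0.33 at 60 min, which overlapped slightly. Within all 8 print rows, which held 1 to 6 of the genes, the list's median difference was above that of all features. Cytosolic translation factors and ergosterol synthesis, with smaller median differences, also lay above in all 8 rows. *ERO1*, the oxidase that supplies disulphide bonds in the ER, had means of 1.05 ± 0.44 and 2.28 ± 0.89, with no overlap of arrays, a difference of 1.23 (interval 0.26 to 2.20; limma adjusted p = 0.516; block-centred 1.01; 0.78 without experiment 1 of 60 min). *KAR2*, the Hsp70 of the ER, had means of 1.47 ± 0.17 and 2.14 ± 0.23, a difference of 0.66 in both forms. *PDI1*, protein disulphide isomerase, was late up with means of 0.18 ± 0.21 and 0.89 ± 0.27, a difference of 0.71 (block-centred 0.43, with overlap). *SEC63*, of the ER translocon, was transient down, with means of -0.96 ± 0.17 and -0.11 ± 0.34 (block-centred difference 0.64). *DER1*, of ER-associated degradation, overlapped between the times, with means of 1.07 ± 0.36 and 0.83 ± 0.48 (block-centred difference -0.47).

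The median of mitochondrial chaperones and proteases lay above control at 30 min and below it at 60 min. Among these genes 11 had a difference below 0 and 5 above. The median log2 ratio of the 16 measured genes was 0.19, 0.25 and 0.26 in the arrays of 30 min and -0.19, -0.27 and -0.37 in those of 60 min, with a median difference of -0.46 (block-centred -0.28). Without overlap 4 genes lay lower and 1 higher, shares of the 16 to be read against 7.53% and 8.70%, and the same counts were found with block-centred values. *HSP60* is described above. *PIM1*, the Lon protease of the matrix, had 0.10, 0.34 and 0.48 and then -0.80, -0.99 and -0.44, a difference of -1.06 (block-centred -0.62), and *MDJ2*, a J-protein of the inner membrane, a difference of -0.97 (block-centred -1.19). *HSP78*, the matrix disaggregase, did not share this, with means of 0.91 ± 0.64 and 1.21 ± 0.51 and overlapping arrays (block-centred difference 0.06).

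Cytosolic chaperones gave no common direction. Of 21 genes of cytosolic Hsp70 and Hsp40, 3 lay higher (14.3%) and 2 lower (9.52%) without overlap, or 3 and 1 (4.76%) with block-centred values. Of 14 genes of Hsp90 and its co-chaperones all overlapped, with 11 differences below 0 and a median of -0.34 (block-centred -0.22). With block-centred values 1 of the 14 lay higher (7.14%, against 7.60% of all features) and 0 lower. *SSZ1*, an atypical Hsp70 of the ribosome, had means of -2.26 ± 0.26 and -1.58 ± 0.32, a difference of 0.69 (block-centred 0.45). The 9 genes of small heat shock proteins and Hsp104 all overlapped in the deposited values, and 5 of them were sustained up. With block-centred values 1 of the 9 lay higher (11.1%) and 0 lower. *HSP104*, the cytosolic disaggregase, had 1.26, 2.28 and 1.15 at 30 min and 2.71, 1.35 and 0.45 at 60 min (block-centred difference -0.42). *SSE2*, an exchange factor of Hsp70, had means of 1.36 ± 0.89 and 0.68 ± 0.99 (block-centred difference -0.52).

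Of 43 genes of the general stress response driven by Msn2 and Msn4, 15 were sustained up, 6 lay lower at 60 min without overlap and 2 higher, and with block-centred values 8 (18.6%, against 5.59%) and 2. The median difference was -0.20 and turned to 0.03 without the experiment 2 array of 30 min and to 0.14 without the experiment 3 array of 60 min. *CTT1*, the cytosolic catalase, overlapped, with means of 1.24 ± 1.00 and 1.11 ± 0.92 (block-centred difference 0.21). *CYC7*, a cytochrome c isoform of stressed cells, lay higher, with a difference of 0.81 (block-centred 1.33) that was 0.34 without experiment 1 of 60 min. Among 22 genes of trehalose and glycogen, 4 lay lower (18.2%) and 0 higher, in block-centred values too. *GPH1*, glycogen phosphorylase, had 0.62, 2.49 and 0.58 and then -0.19, 0.23 and 0.13, a difference of -1.17 (block-centred -1.39) that was -0.54 without experiment 2 of 30 min, and *UGP1*, which makes UDP-glucose, was late down with a difference of -1.11 (block-centred -1.06).

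Most genes of the 26S proteasome, which degrades proteins tagged with ubiquitin, had a lower mean at 60 min. Of 35 genes 30 had a difference below 0, and 7 lay lower without overlap (20.0%) and 0 higher, with the same counts in block-centred values. The median difference was -0.31 (block-centred -0.30), and ranged from -0.52 to -0.08 with 1 array left out. The list's median log2 ratio was 0.035, 0.076 and 0.383 in the arrays of 30 min. It was 0.337, -0.563 and -0.017 in those of 60 min, so that the medians of the times overlapped. Within each of the 8 print rows, which held 1 to 8 of the genes, the list's median difference was below that of all features. Mitochondrial ribosomal proteins and the respiratory chain and ATP synthase, with smaller median differences, also lay below in all 8 rows. *PRE3*, a catalytic subunit, had 0.39, 0.09 and 0.46 at 30 min and -0.20, -1.29 and -0.57 at 60 min, so that it lay above control in each early array and below it in each late one (block-centred difference -1.26). *UMP1*, an assembly factor, had a difference of -0.77 (block-centred -0.34) and *PRE5*, a subunit of the core, -0.76 (block-centred -0.50). The 49 genes of the ubiquitin system had 5 higher (10.2%, against 8.70% of all features) and 2 lower (4.08%, against 7.53%). After block centring the counts were 2 (4.08%, against 7.60%) and 5 (10.2%, against 5.59%). *UBI4*, polyubiquitin, had means of 1.37 ± 0.73 and 0.75 ± 0.20, *UBC5*, a conjugating enzyme, 1.60 ± 0.20 and 1.43 ± 0.23, and *UBP9*, a deubiquitinating enzyme, 0.53 ± 0.19 and 0.94 ± 0.36, each with overlapping arrays. After block centring their differences were -0.63, 0.26 and 0.14, and *UBI4*, whose arrays then did not overlap, was transient up.

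Most genes of the TCA and glyoxylate cycles had a lower mean at 60 min. Of 34 genes of the TCA and glyoxylate cycles 11 lay lower without overlap (32.4%) and 0 higher, and with block-centred values 9 (26.5%) and 1. Their medians on the log2 scale were -0.26 early and -0.52 late, and 5 genes were late down. The array medians were -0.52, -0.19 and -0.06 at 30 min and -0.48, -0.80 and -0.37 at 60 min, which overlapped. *CIT1*, mitochondrial citrate synthase, had -0.35, 0.73 and 0.36 at 30 min and -1.85, -1.07 and -0.50 at 60 min, a difference of -1.39 (block-centred -1.06). *IDH1* and *IDH2*, the subunits of isocitrate dehydrogenase, had differences of -1.20 and -0.87 (block-centred -0.92 and -1.16), and that of *IDH2* was -0.54 without experiment 2 of 60 min. In each of the 7 print rows that hold members, 3 to 7 genes a row, the list's median difference was below that of all features.

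Of 70 mitochondrial ribosomal protein genes 13 lay lower (18.6%) and 1 higher, but with block-centred values 6 (8.57%) and 1. *MRPL23* had a difference of -1.21 that was -0.65 after block centring. Among 42 genes of the respiratory chain and ATP synthase 6 lay lower (14.3%) and 4 higher (9.52%), and with block-centred values 4 and 4. *NDE1*, an external NADH dehydrogenase, had -0.50, -0.49 and -0.87 at 30 min and 0.99, 0.14 and 0.37 at 60 min (block-centred difference 0.99). In glycolysis and fermentation 7 of 36 genes lay lower (19.4%) and 1 higher, the 7 including *GPM3*, a phosphoglycerate mutase homologue, with a difference of -1.23 (block-centred -0.65). After block centring 7 lay lower and 2 higher.

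**Figure D5:**
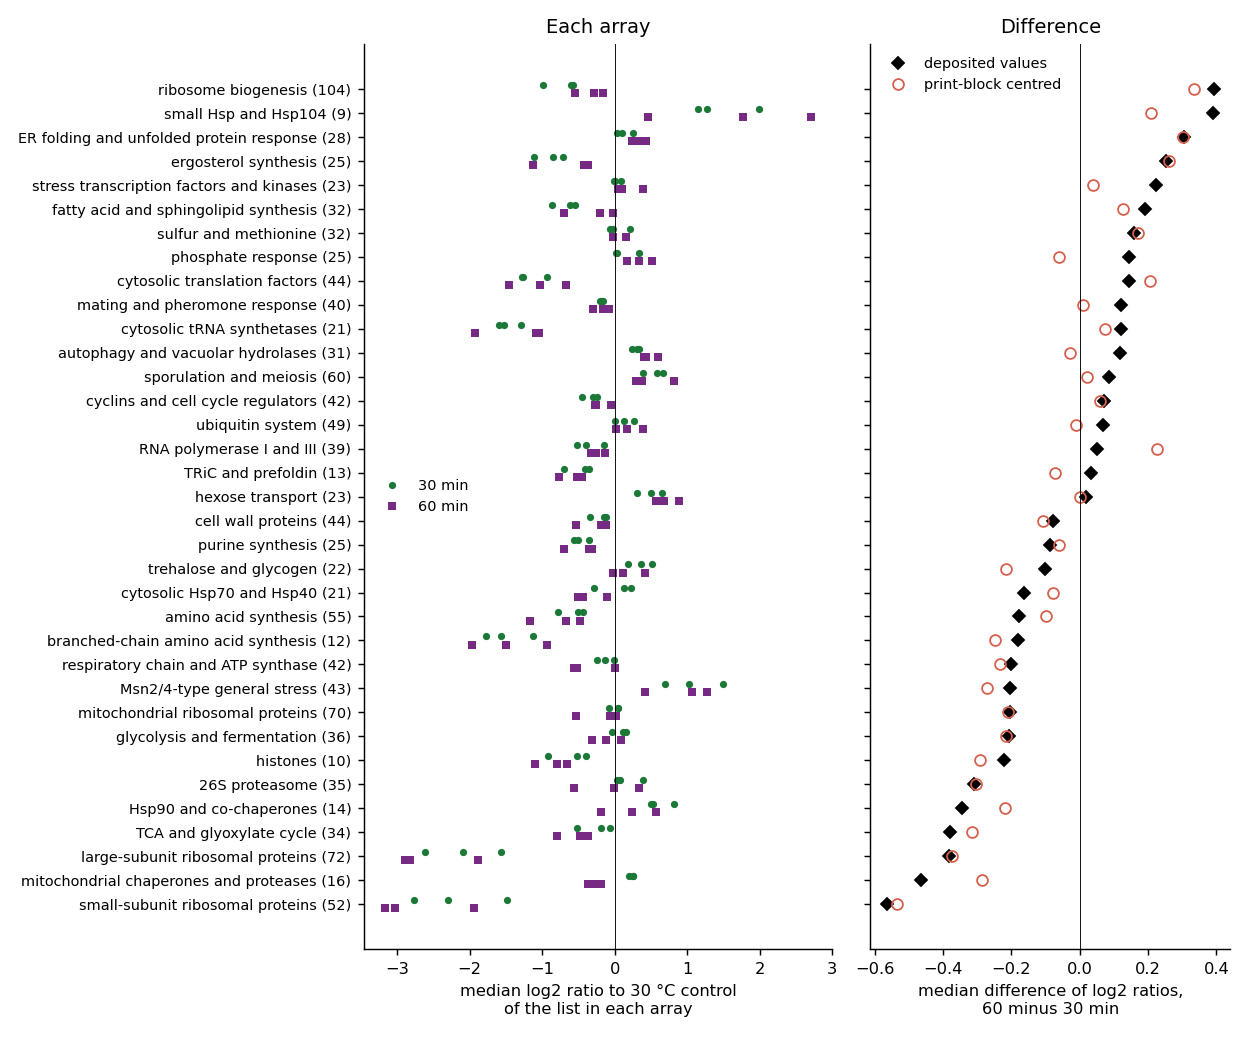
Left, median log2 ratio of heat-shocked over control cells (x axis) of each of 35 gene groups in each array at 30 min (green circles) and 60 min (purple squares), with the number of measured genes in brackets. Right, median difference, 60 minus 30 min (x axis), for the deposited values (black) and after block centring (open circles); ribosome biogenesis is at the top with 0.39 and 0.34, and small-subunit ribosomal proteins at the bottom with -0.56 and -0.53.

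In amino acid synthesis 10 of 55 genes lay lower (18.2%) and 2 higher, and with block-centred values 6 (10.9%) and 4. *LYS9*, of lysine synthesis, was late down with a difference of -1.07 (block-centred -0.91), and *HIS4*, of histidine synthesis, had means of 0.80 ± 0.37 and -0.18 ± 0.33 (block-centred difference -0.74). *LEU2*, of leucine synthesis, which is mutated in this strain, had means of -2.01 ± 0.11 and -3.11 ± 0.46 (block-centred difference -0.79). Among 25 ergosterol genes 4 lay higher (16.0%) and 0 lower, with *ERG27* and *ERG6* transient down, and after block centring 3 and 1. *ERG6*, a sterol methyltransferase, had means of -1.32 ± 0.10 and -0.40 ± 0.65 (block-centred difference 0.69). *OLE1*, the fatty acid desaturase, had -1.30, -0.62 and -1.17 at 30 min and 0.12, -0.29 and -0.17 at 60 min, a difference of 0.92 (block-centred 0.76).

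Of 44 cell wall genes 10 lay lower (22.7%) and 3 higher, and after block centring 6 (13.6%) and 3. *SCW11*, *DSE2* and *CTS1*, described above, were among the lower ones. Of 40 genes of mating and pheromone response 6 lay lower (15.0%) and 3 higher, and 3 and 1 after block centring. *STE2*, the receptor of alpha-factor in MATa cells, was sustained down with -3.94, -3.07 and -2.40 at 30 min and -4.32, -4.62 and -3.97 at 60 min, a difference of -1.17 (block-centred -1.12). Of 42 cyclins and cell cycle regulators 5 lay lower (11.9%) and 2 higher (4.76%), and with block-centred values 4 and 4. *CDC5*, the polo kinase, and *CLB1*, a mitotic cyclin, were sustained down with differences of -0.99 and -0.87 (block-centred -0.73 and -0.44; -0.59 and -0.35 without experiment 1 of 60 min). The 10 histone genes overlapped between the times, with median log2 ratios of -0.66 and -0.90.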

How the data were processed

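The authors labelled poly(A) RNA of heat-shocked (Cy5) and control (Cy3) JN54 cells, scanned each array at 2 settings, quantified spots with GenePix and normalized ratios with negative control spots in Chip Cleanser. The deposited values, 12 columns for 6 arrays, are log ratios whose base is not given in the sources used here and which were read as log2; the columns of the 2 scans are identical and were counted once. No intensities were used, so the precision of a gene rests on the number of arrays and on the spread between them, as moderated by limma. Of 6912 probes 750 had no value. Probes identical in every array (78 groups) were counted once and distinct probes of 18 genes averaged, which left 6019 features. Means and differences were tested with limma 3.58.1 in R 4.3.3 (Benjamini-Hochberg, 0.05), after a test on simulated data; the study's methods state no test of this difference. Intervals are 95% intervals of limma.

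Named were the 8 genes of largest difference in each transient and late class, the 6 strongest sustained genes in each direction, the 6 of smallest p in each direction, up to 3 non-overlapping genes of each list described, and genes of the study's text. Members and lists were chosen with earlier results of these data known; list genes were matched by symbol. Alternatives were array centring and scaling, print-block centring, separate identical probes, complete values, the low power scan, a replicate block, array weights, robust moderation, other fold rules, natural logarithms and leaving out arrays; print-row centring was added after the data were seen. A search of promoters for motifs was not run, since no promoter sequences were used here.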

Additional observations from a re-analysis of the deposited data

Results flagged for a closer look

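The 16 measured genes of mitochondrial chaperones and proteases had a median difference of -0.46 on the log2 scale (block-centred -0.28), with 11 differences below 0 and 5 above. Their median lay above control in every array of 30 min and below it in every array of 60 min. Their shift was not tested as a group.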

How the results depend on the processing

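The test of the difference gave 0 genes in either direction under all alternatives except 2. With the experiment number as a replicate block, 1 gene lay lower (*SCW11*, adjusted p = 0.0494) and 0 higher. At an unadjusted p below 0.05, limma with this block gave 301 genes higher and 331 lower. No pairing by experiment number was assumed in the main fit, since nothing states that a number is shared between the times. Deviations of same-numbered arrays correlated at -0.04, 0.12 and 0.35, and those of different-numbered arrays at -0.29 to 0.19. These values do not settle whether the arrays are paired. Leaving out 1 array in turn gave 0 to 2 genes lower and 0 higher, the 2 being *SCW11* and *DSE2* without the experiment 1 array of 30 min. At an unadjusted p below 0.05, 123 to 451 genes were higher and 149 to 407 lower when 1 array was left out, and 153 were higher and 183 lower with experiment 3 left out at each time. The lowest number higher came without the experiment 2 array of 30 min, and the highest in each direction without the experiment 2 array of 60 min.

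Without overlap, 700 to 1100 genes were higher and 616 to 877 lower with 1 array left out, where fewer arrays are compared, and 1300 and 1019 with experiment 3 left out at each time. Over 2-fold in all 3 arrays gave 9 transient up, 67 sustained up, 23 late up, 32 transient down and 226 sustained down genes. Over 1.5-fold gave 77, 681, 127, 102 and 840 genes and 135 late down. Read as natural logarithms, the ratios gave 56, 507, 97, 76, 703 and 123 in the same order. Arrays scaled to 1 spread gave 54 transient up, 27 late up and 98 transient down genes. Print-block centring gave 40 late down genes, and print-row centring, chosen after seeing the data, 31 transient down and 47 late down. The cause of these shifts was not tested.

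With 1 array left out, there were 18 to 46 transient up, 86 to 133 sustained up, 29 to 185 late up, 40 to 144 transient down, 295 to 385 sustained down and 62 to 132 late down genes, where the rule needs both arrays that remain. The 185 late up genes came without the experiment 3 array of 60 min, and with experiment 3 left out at each time there were 194 late up, 93 transient down and 138 late down. The 46 transient up and 144 transient down genes came without the experiment 2 array of 60 min, and the 132 late down without the experiment 1 array of 30 min. Without the experiment 1 array of 60 min there were 86 sustained up and 29 late up genes.

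The difference changed sign under some settings for 13 named genes, for none of which it passed the test. Print-block centring gave -0.0266 for *SFL1*, -0.0239 for *UPC2*, -0.1024 for *PHO84*, -0.0385 for *ASC1*, 0.1302 for *RPL4B*, 0.2135 for *CTT1* and 0.2634 for *UBC5*. Print-row centring gave 0.0584 for *RPL4B*, 0.0061 for *CTT1* and 0.1162 for *UBC5*. Scaled arrays gave -0.425 for *HSP12*, -0.0841 for *HSP26*, -0.1043 for *PHO84*, 0.4585 for *RPL4B* and 0.4935 for *RPL4A*. Array weights gave -0.0892 for *HSP12*, -0.3311 for *HSP26*, -0.2149 for *PHO84*, 0.0535 for *RPL4A* and -0.1134 for *HSP78*. With experiment 3 left out at each time, *DDR2* gave 0.8286 and *HSP104* 0.2548. With 1 array left out, the difference ranged from -0.8259 to 0.4221 for *DDR2*, -0.3604 to 1.5509 for *HSP26*, -0.3359 to 1.0639 for *PHO84*, -0.2767 to 0.4028 for *ASC1*, -0.3445 to 0.0602 for *RPL4B*, -0.4991 to 0.2085 for *RPL4A*, -0.5692 to 0.4168 for *CTT1* and -0.668 to 0.4621 for *HSP104*. The median differences of ribosome biogenesis (0.28 to 0.55), ER folding (0.24 to 0.42), the proteasome (-0.52 to -0.08), the TCA and glyoxylate cycles (-0.55 to -0.29) and mitochondrial chaperones (-0.57 to -0.28) kept their sign under every setting, while that of small heat shock proteins and Hsp104 (-0.16 to 0.63) did not. Some settings, such as the identical low power scan and robust moderation, cannot move a median. Groups with smaller shifts also kept their sign, among them cyclins and cell cycle regulators (0.02 to 0.11) and cell wall proteins (-0.22 to -0.02). A kept sign therefore does not set the 5 groups apart. With 3 arrays a time, no exact permutation test of a single gene could give a two-sided p below 0.1. The log base and the separate controls of the 2 times limit every difference. The lack of a dye swap limits every ratio to control, and with it the classes.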

Other observations

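Open reading frames known only by an identifier fell outside the genes named above. Chosen after their values were seen, 4 of them had the smallest p-values among features higher at 60 min. YCL019W had log2 ratios of 0.02, -0.36 and -0.61 at 30 min and 2.09, 1.13 and 1.72 at 60 min, a difference of 1.96 with an interval of 1.22 to 2.70 (limma adjusted p = 0.449; block-centred 1.59). YCL020W had a difference of 1.86 (block-centred 1.80), YOR343W-B of 1.90 (block-centred 2.02) and YBL100W-A of 1.73 (block-centred 1.21). All 3 early arrays of YOR343W-B and YBL100W-A lay below control, and all late arrays of the 4 reading frames above it. YCL019W and YCL020W overlap in the reference annotation, so their values are not independent. Whether the others share sequence with them or with each other was not tested, and the 4 are not counted here as separate genes.

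Further genes of vitamin and cofactor synthesis were looked up after *THI13* and *SNZ1* had been seen. *BNA2*, of NAD synthesis, had 2.03, 1.66 and 1.14 at 30 min and 3.05, 2.95 and 2.43 at 60 min, a difference of 1.20 (block-centred 1.53). *THI20*, of thiamine synthesis, had 1.11, 1.11 and 1.24 and then 2.63, 1.89 and 1.66, a difference of 0.91 (block-centred 1.12). The arrays of these genes did not overlap, while *THI5* and *THI11*, near-identical to *THI13*, overlapped between the times with differences of 0.96 and 0.76. *THI4* and *SNZ2* had differences of 0.06 and -0.09.

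*SCW10*, a cell wall glucanase-like protein, was sustained down and lay higher at 60 min, with -3.19, -2.23 and -2.50 at 30 min and -1.09, -1.90 and -1.27 at 60 min (difference 1.22, block-centred 1.55). This is the opposite order to that of *SCW11*, whose ratios at 60 min were all below those at 30 min.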
